A study of Mus musculus with 15 samples.

Results

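The mitochondrial ribosomal protein genes examined here are those whose symbol in the deposited table begins with Mrpl or Mrps followed by a digit. They number 76 symbols on 77 loci, out of 23589 loci with a gene name. There were 47 Mrpl and 29 Mrps symbols. RNA-Seq covered 5 tissues of male C57BL/6 mice, namely hippocampus, hypothalamus, colon, liver and epididymal fat. AL mice had free access to food and were 5 months of age. Mice in the DR group had their food restricted by 40% for 1 month from 4 months of age, and were 5 months of age as well. Mice in the DR-AL group went through the same month of restriction, were then fed AL for 2 months, and were 7 months of age, so that the return to AL and the greater age cannot be told apart. Each combination of tissue and diet gave 1 library, from the pooled RNA of 5 mice, 15 libraries in all, and the tissues came from the same mice. The comparison asks whether transcripts of the mitochondrial ribosome differed after a short restriction and after its end.

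Mitochondrial ribosomes translate the few messenger RNAs encoded by mitochondrial DNA, and the products are core subunits of the respiratory chain and of ATP synthase. Their ribosomal RNA comes from mitochondrial DNA, whereas each of their proteins is encoded in the nucleus, made in the cytosol and imported. Some of the proteins have a bacterial homologue, and others exist in mitochondria alone.

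By protein class, 29 symbols encode large subunit proteins with a bacterial homologue, 20 encode large subunit proteins specific to mitochondria, 16 encode small subunit proteins with a bacterial homologue and 10 encode small subunit proteins specific to mitochondria. The large subunit includes Mrps18a and Mrps30, whose products sit there in spite of their symbols. Mrps36, in no class, encodes a protein since assigned to the 2-oxoglutarate dehydrogenase complex. The 76 genes lie on 17 chromosomes, with the largest number (10) on chromosome 11, and each lies on the same chromosome in the table as in the GENCODE M21 annotation. On 3 loci the counts are shared with other gene names and cannot be divided, namely Mrps6 with Slc5a3, Mrpl53 with Ccdc142, and Mrps23 with Cuedc1 and 2210416O15Rik. Mrps22 is listed on 2 loci. The second of them lies on the strand opposite to the annotated gene and held between 0.110 and 5.06 counts per 1000000 counts on named loci (CPM). Each other member locus had at least 181 counts in every library.

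The 15 libraries held between 21767088 and 40500130 counts on named loci (median 26554699). All 77 member loci were tested in each tissue, and in each tissue 76 or 77 of them averaged 100 counts or more per library. With 1 library per group there was no replicate check. Each test within a tissue therefore compares libraries, not diets, and intervals cover counting error only. In bulk tissue, fewer cells that express a gene and less of its RNA per cell cannot be told apart.

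The tissue labels held against their marker genes, with exceptions in fat and for Ttr in the hippocampus. Ttr, which is in the hepatocyte list, held 2693, 1641 and 2603 CPM in the hippocampus with AL, DR and DR-AL. In the hypothalamus Ttr held 4.18, 2.50 and 4.39 CPM, and the source of this difference was not tested. Liver libraries held 96928, 89965 and 91463 CPM of the hepatocyte list with AL, DR and DR-AL, although Alb, which is in that list, is listed at 0 counts in all 15 libraries. Colon libraries held 39801, 40503 and 41049.5 CPM of colon epithelium markers and 70.3, 94.1 and 38.3 CPM of smooth muscle markers. The neuron list summed to 5301, 5584 and 6085 CPM in the hypothalamus and to 10380.0, 10276 and 9909 CPM in the hippocampus. Peptide and other hypothalamus markers summed to 1104, 939.9 and 864 CPM in the hypothalamus, and the hippocampus and cortex list to 2078, 2099 and 1896 CPM in the hippocampus. Oligodendrocyte markers summed to 3776, 4183 and 5657 CPM in the hypothalamus and to 5731, 4699 and 5150.2 CPM in the hippocampus.

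Summed over the 77 loci, transcripts of mitochondrial ribosomal proteins made up between 2107 and 3309 CPM of a library. In the liver the sum was 2736 CPM with AL, 2933 with DR and 3153 with DR-AL. Mrpl12 alone held 139.9, 126 and 288 CPM of these sums. In fat it was 2847 CPM with AL, 3309 with DR and 2736 with DR-AL. In the colon it was 2485 CPM with AL, 2731 with DR and 2717 with DR-AL. Without the 3 shared loci, the sums in the colon were 2291, 2440.35 and 2399 CPM, so the shared loci held part of the difference between the AL and DR-AL libraries there. They were 2664, 2858 and 3039 CPM in the liver and 2564, 2983 and 2449.7 CPM in fat. Each sum is that of 1 library. In the hypothalamus the sum over all member loci was 2293 CPM with AL, 2325 with DR and 2320.1 with DR-AL, and in the hippocampus 2141, 2124 and 2107 CPM. The brain libraries of 1 region lay within a narrow range.

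**Figure D1:**
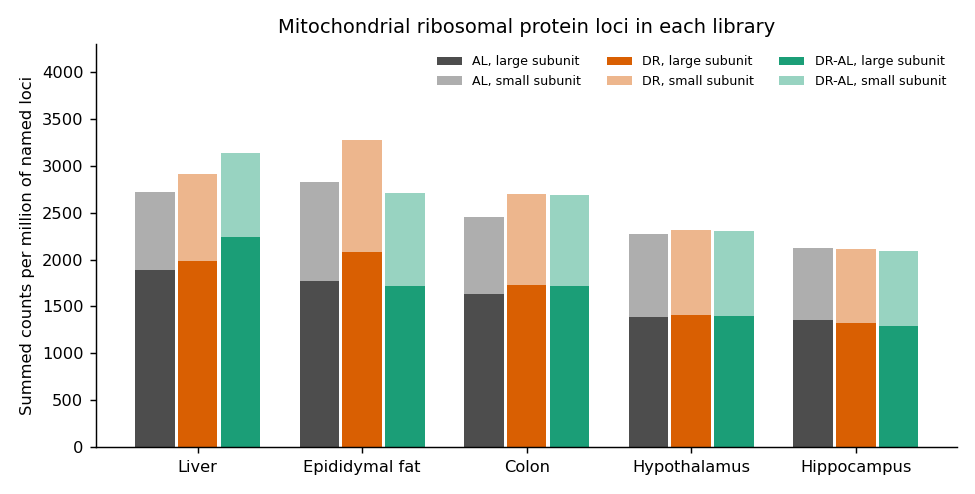
Summed CPM of the mitochondrial ribosomal protein loci (vertical axis) in each of the 15 libraries, by tissue and diet, with dark bars for the large subunit and pale bars for the small subunit; Mrps36 is left out. The sum with Mrps36 is highest in the DR library of fat (3309 CPM) and lowest in the DR-AL library of the hippocampus (2107 CPM).

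The median coefficient of variation of a member over the 3 libraries was 14.8% in the liver, beside 17.7% for all loci with a mean of at least 100 counts. In fat it was 12.7% beside 21.04%, and in the colon 5.40% beside 9.01%. It was 4.22% beside 5.92% in the hypothalamus and 4.65% beside 5.33% in the hippocampus. On the scale of totals, the only one used for these spreads, the median member varied less than the median locus of that abundance in each tissue. Those loci share the minimum of 100 counts and were not matched to the members in depth. Counting error alone would give the median member 3.58% in the liver, 3.38% in fat and 3.46% in the colon. It would give 3.51% in the hypothalamus and 3.48% in the hippocampus, close to the spreads seen there. The scale matters in fat. With DESeq size factors, the members' median log2 fold change of DR-AL over DR there moved from -0.29 to -0.44. That of loci of that abundance moved from 0.16 to 0.02. For 53 members in the liver (69.7%, beside 71.3% of loci of that abundance) and 44 in fat (57.9%, beside 76.0%) the highest library exceeded the lowest by at least 25%. There were 8 such members in the colon (10.5%, beside 35.8%), 4 in the hypothalamus (5.19%, beside 21.2%) and 4 in the hippocampus (5.26%, beside 13.04%).

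Per transcript length, members spanned a wide range of levels. Levels between genes were read from the deposited FPKM values by rank among the 77 loci of each library. Mrpl20 was among the 5 highest in all 15 libraries, and Mrps21 and Mrpl52 in 14 each. The order among them differed between tissues. In the AL library of the liver, Mrpl52 (378 FPKM) and Mrpl12 (342 FPKM) stood above Mrpl20 (253 FPKM), and in that of the hippocampus Mrpl20 (67.7 FPKM) stood above Mrpl52 (50.2 FPKM). Mrpl30 ranked between 4 and 15, Mrpl42 between 5 and 10, and Mrpl12 between 1 and 20. The second Mrps22 locus ranked lowest in each library, and Mrpl19 between 74 and 76. Mrpl17 ranked between 70 and 76, Mrpl1 between 69 and 75, and Mrpl35 between 71 and 75. FPKM values carry a factor shared by the loci of a library, so libraries were compared by counts, and by FPKM as an alternative only. In fat, the median ratio of FPKM to counts relative to the AL library was 0.608 for DR and 0.327 for DR-AL.

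In the liver, the DR-AL library held more of many mitochondrial ribosomal protein transcripts than the AL library. By the Z test of the square roots of counts (adjusted p under 0.05 by Benjamini-Hochberg, with the higher level at least 25% above the lower), 26 of the 77 member loci (33.8%) were higher in DR-AL, beside 15% of the 17408 loci tested. A further 4 (5.19%) were lower, beside 15.8%. Among all loci with a mean of at least 100 counts, 19.6% were higher and 23.4% were lower. The median log2 fold change of the members was 0.09, beside 0 over all loci tested, but -0.03 beside -0.08 from FPKM divided by their sum in the library, a scale chosen after seeing the data. On counts, 50 loci lay above 0 and 27 below. The higher members comprised 18 of the 49 large subunit loci and 8 of the 27 small subunit loci.

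Mrpl12 led this group together with Mrpl53. Mrpl12 encodes the homologue of a bacterial stalk protein and also binds the mitochondrial RNA polymerase. Its level was 139.9 CPM with AL, 126 with DR and 288 with DR-AL. The DR-AL library stood above the AL and DR libraries, with a log2 fold change over AL of 1.04 (95% interval 0.98 to 1.10). The Mrpl53 locus, shared with Ccdc142, gave 31.7 CPM with AL, 34.6 with DR and 65.6 with DR-AL, a log2 fold change of 1.05 (95% interval 0.92 to 1.17) in DR-AL. Mrps18c, 1 of 3 paralogs of the same bacterial small subunit protein, gave 26.0 CPM with AL, 28.1 with DR and 45.0 with DR-AL. Its log2 fold change was 0.79 (95% interval 0.65 to 0.94) in DR-AL, and here too the DR library lay close to the AL library. The other paralogs did not pass: Mrps18a gave 34.0, 27.7 and 30.3 CPM with AL, DR and DR-AL, and Mrps18b gave 53.0, 51.2 and 43.9 CPM with AL, DR and DR-AL.

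With a wider error, 9 of the 26 were still called. In the exact test of edgeR with pools assumed to vary with a coefficient of 0.1, these 9 (11.7%) were higher, beside 5.64% of all loci, and 0 were lower, beside 4.96%. The coefficient is an assumption, since no group has a replicate. The model over all 15 libraries, with tissue and diet as terms, estimated 0.301. That value also takes in diet differences that vary between tissues, so it is not a spread between pools alone. The 9 were Mrpl53, Mrpl12, Mrps18c, Mrps16, Mrpl1, Mrpl40, Mrpl41, Mrps33 and Mrpl54, large and small subunit proteins alike. Mrps16 gave 26.2 CPM with AL, 30.2 with DR and 44.9 with DR-AL, and Mrpl1 gave 24.7, 29.2 and 42.0 CPM in that order of diets. Mrpl40 gave 22.2, 24.9 and 37.3 CPM and Mrpl41 25.3, 25.7 and 42.3 CPM. Mrps33 gave 39.8, 44.4 and 66.1 CPM and Mrpl54 22.6, 25.9 and 36.5 CPM. In each of the 9 the DR-AL library was the highest of the 3. The 26 and the 4 were called with DESeq size factors too, beside 15.9% and 14.9% of all loci.

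The 4 members lower in the DR-AL liver were Mrpl45, Mrpl38, Mrps5 and Mrpl2. Mrpl45 encodes a protein that anchors the mitochondrial ribosome to the inner membrane, and it gave 32.8 CPM with AL, 29.2 with DR and 23.6 with DR-AL, a log2 fold change of -0.48 (95% interval -0.63 to -0.32). Mrpl38 gave 61.4 CPM with AL, 74.8 with DR and 45.3 with DR-AL, a log2 fold change of -0.44 (95% interval -0.55 to -0.33). Mrps5, a small subunit protein whose level has been linked to lifespan in worms and mouse strains, gave 42.0 CPM with AL, 43.0 with DR and 31.2 with DR-AL, a log2 fold change of -0.43 (95% interval -0.56 to -0.29). Proteins of the same particle thus had transcripts on either side of AL in this library.

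Under restriction itself, fewer liver members passed the test. In the DR library 12 of 77 (15.6%) were higher than in AL, beside 18.0% of the loci tested, and 2 (2.60%) were lower, beside 9.92%. The share of higher members is near the background and is not a result about these genes. The median was 0.14, beside 0.10 over all loci tested, and with size factors 0.05 beside 0.02. From FPKM divided by their sum in the library, a scale chosen after seeing the data, its sign turned (-0.01 beside 0). With DESeq size factors 3 were higher, beside 14.01%, and 5 lower, beside 13.7%. Mrpl23, a large subunit protein of the exit tunnel region, was the single member (1.30%) that also passed with a coefficient of variation of 0.1, beside 5.88% of all loci. It gave 23.7 CPM with AL, 43.6 with DR and 24.7 with DR-AL, with a log2 fold change of 0.88 (95% interval 0.73 to 1.03) in DR, so the level in DR-AL lay next to that in AL. Mrps36 gave 12.4 CPM with AL, 18.2 with DR and 11.1 with DR-AL, a log2 fold change of 0.56 (95% interval 0.34 to 0.78) in DR, and Mrpl52 gave 38.4, 52.8 and 45.6 CPM with AL, DR and DR-AL, a log2 fold change of 0.46 (95% interval 0.33 to 0.59) in DR. Mrpl3, the homologue of a bacterial protein near the peptidyl transferase centre, gave 18.3 CPM with AL, 13.1 with DR and 20.8 with DR-AL, a log2 fold change of -0.48 (95% interval -0.70 to -0.27). Mrpl44 gave 23.1 CPM with AL, 16.9 with DR and 28.0 with DR-AL, a log2 fold change of -0.46 (95% interval -0.65 to -0.26). Mrpl3 and Mrpl44 were the 2 members called lower in DR.

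**Figure D2:**
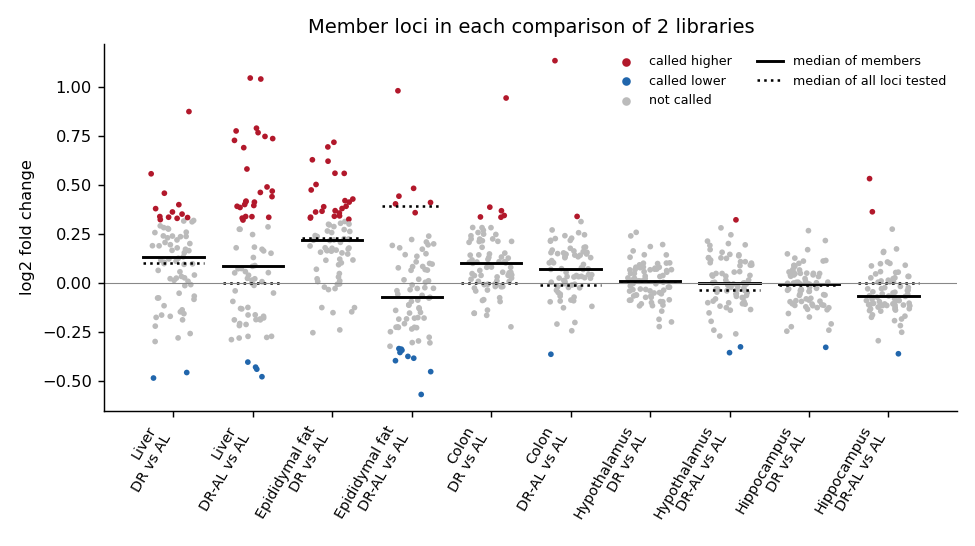
Log2 fold change (vertical axis) of each member locus in each comparison of a DR or DR-AL library with that tissue's AL library, with 1 point per locus and without the second Mrps22 locus; solid lines are medians of the 77 member loci and dotted lines medians of all loci tested. Relative to that of all loci, the median of the members is -0.47 in fat with DR-AL, where totals of named loci set the scale and the calls change with DESeq size factors (1 higher and 48 lower, beside 33.4% and 24.7% of all loci, in place of 6 and 9).

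In epididymal fat, members lay close to the other loci in DR and below them in DR-AL. With DESeq size factors in place of totals, the median of all loci tested moved by -0.19 for DR (from 0.23 to 0.04) and by -0.34 for DR-AL (from 0.39 to 0.06), so the medians of the members in fat are given relative to it. Counts of calls and log2 fold changes of single members in fat are on the scale of totals. In DR, 23 of 77 members (29.9%) were higher than in AL, beside 35.2% of the 20382 loci tested, and 0 were lower, beside 10.4%. With size factors, 6 were higher, beside 26.2%, and 4 lower, beside 16.6%. Relative to the median of all loci, that of the members was -0.01. In DR-AL, 6 members (7.79%) were higher, beside 46.0% of the loci, and 9 (11.7%) were lower, beside 11.9%. With size factors, 1 was higher, beside 33.4%, and 48 (62.3%) were lower, beside 24.7%. Relative to the median of all loci, that of the members was -0.47. A change of scale moves both medians by nearly the same amount, so this distance is no check on the scale. Loci with a mean of at least 100 counts had medians of 0.25 under the totals and -0.09 under the size factors. The members' medians were -0.07 and -0.41, so their distance from loci of that abundance was smaller. The share of members lower in DR-AL was near the background under the totals.

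Marker genes of other tissues differed between the 3 fat libraries. Of the hepatocyte list, 16 of 17 genes had counts in each fat library (Alb was at 0), and the list summed to 19238, 5330.1 and 4126 CPM with AL, DR and DR-AL. Cyp2e1, also made by fat, was the most abundant of them, and without it the sums were 10553, 89.7 and 22.96 CPM. The testis germ cell list (12 of 12 with counts) summed to 65.3, 866 and 4176 CPM, led by Odf2 in AL and DR and by Prm2 in DR-AL (771 CPM). The epididymis list (9, 11 and 10 of 11 with counts, Lcn9 at 0 in AL and DR-AL and Cst11 at 0 in AL) summed to 933, 3317 and 5252 CPM, led by Crisp1. The smooth muscle list (8 of 8) summed to 1406, 4016 and 1347 CPM, led by Myh11 in AL and DR and by Acta2 in DR-AL. The adipocyte list (10 of 10) summed to 48476, 40106 and 34635 CPM, led by Fabp4, and the macrophage list (8 of 8) to 448, 614 and 558 CPM, led by Lyz2. The hypothalamus list, which holds Npy, summed to 25.7, 69.9 and 251 CPM there, most of it Npy. Their part in the levels of the members in fat was not tested, and no fat library can be left out, since each group has only that library.

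Among single members in fat, Mrpl42 had the largest rise in DR, with 48.5 CPM with AL, 79.9 with DR and 47.3 with DR-AL and a log2 fold change of 0.72 (95% interval 0.62 to 0.82), which is 0.49 relative to the median of all loci. Mrps11 gave 12.3 CPM with AL, 20.0 with DR and 16.8 with DR-AL, with a log2 fold change of 0.70 (95% interval 0.49 to 0.91) in DR, or 0.46 relative to that median. It lies head to head with Mrpl46 on the opposite strand of chromosome 7. Mrpl55 gave 18.2 CPM with AL, 28.1 with DR and 19.5 with DR-AL, a log2 fold change of 0.63 (95% interval 0.46 to 0.81), or 0.40 in relative terms. With Mrps36, Mrpl21 and Mrpl16, these were the 6 members that passed in DR with size factors and with a coefficient of variation of 0.1, under which 22.25% of all loci were higher. In DR-AL, where 35.7% of all loci were higher and 8.04% lower with that coefficient, the corresponding members were Mrpl47, which was higher, and Mrps24, which was lower. Mrpl47 gave 10.03 CPM with AL, 13.4 with DR and 19.8 with DR-AL, with the DR library between the others and a log2 fold change of 0.98 (95% interval 0.77 to 1.20) in DR-AL, or 0.59 relative to the median of all loci. Mrps24 gave 32.3 CPM with AL, 27.2 with DR and 21.8 with DR-AL, a log2 fold change of -0.57 (95% interval -0.72 to -0.41) in DR-AL, or -0.96 in relative terms. Mrps15 gave 55.3 CPM with AL, 76.9 with DR and 40.4 with DR-AL and was called higher in DR (0.48) and lower in DR-AL (-0.45), as were Mrpl12 and Mrpl34; the calls in DR were not made with size factors. Next among those called higher in DR-AL were Mrpl54 (0.48, or 0.09 relative to the median) and Mrps11 (0.44, or 0.05), neither of them called with size factors. Next among those called lower was Mrpl27 (-0.39, or -0.79).

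In the colon, few members passed, and the shared locus of Mrps6 and Slc5a3 changed most. In DR 6 members (7.79%) were higher than in AL, beside 9.04% of the 18242 loci tested, and 0 were lower, beside 10.6%. In DR-AL 2 members (2.60%) were higher, beside 5.83%, and 1 (1.30%) was lower, beside 8.5%. The members' medians were 0.10 and 0.07, beside 0 and -0.01 over all loci. Counts on the Mrps6 locus come from Mrps6, a small subunit protein, and from Slc5a3, the myo-inositol transporter encoded within it, and the table does not divide them. The locus gave 104 CPM with AL, 201 with DR and 229 with DR-AL. The DR and DR-AL libraries were well above AL, with log2 fold changes of 0.95 (95% interval 0.88 to 1.01) in DR and 1.14 (95% interval 1.07 to 1.20) in DR-AL. It was the member that passed with a coefficient of variation of 0.1 in either comparison of the colon, beside 1.68% of all loci higher with DR and 0.619% with DR-AL. Mrpl51 gave 69.7 CPM with AL, 91.2 with DR and 77.2 with DR-AL, a log2 fold change of 0.39 (95% interval 0.31 to 0.47) in DR, and Mrpl18 gave 33.4 CPM with AL, 43.2 with DR and 38.9 with DR-AL, a log2 fold change of 0.37 (95% interval 0.25 to 0.49). In DR-AL, Mrps2 was higher (0.34) and Mrps9 lower (-0.36).

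In the brain, few members were called. In the hypothalamus, 0 of 77 were higher in DR, beside 4.33% of the 19320 loci tested, and 0 were lower, beside 2.72%. In DR-AL 1 was higher, beside 6.06%, and 2 were lower, beside 9.02%. In the hippocampus, 0 were higher in DR, beside 1.36% of the 18804 loci tested, and 1 was lower, beside 2.67%. In DR-AL 2 were higher, beside 3.99%, and 1 was lower, beside 2.16%. None of these 7 calls was made with a coefficient of variation of 0.1, under which at most 2.12% of all loci in the hypothalamus and 0.223% in the hippocampus were called in a direction, so this is near the background. In the hypothalamus Mrpl12 was higher in DR-AL, with 36.3 CPM with AL, 38.4 with DR and 45.4 with DR-AL. Mrpl33 and Mrps28 were lower there, at -0.35 (95% interval -0.60 to -0.12) and -0.32 (95% interval -0.57 to -0.08) on the log2 scale, and Mrps28 was not called with size factors, where the split was 1 higher and 1 lower, beside 6.99% and 7.91%. In the hippocampus Mrps10 was lower in DR, at -0.33 (95% interval -0.50 to -0.15), and Mrps28 was lower in DR-AL, at -0.36 (95% interval -0.62 to -0.10). The Mrps6 locus gave 45.9 CPM with AL, 55.3 with DR and 66.5 with DR-AL and was higher in DR-AL, as was Mrps24 (0.37). Medians of the members in the hypothalamus were 0.01 for DR, where the sign turned from FPKM (-0.0043), and 0.0011 for DR-AL. In the hippocampus they were -0.0042 in DR, where the sign turned with size factors (0.00016) and from FPKM (0.10, beside 0.10 over all loci), and -0.06 in DR-AL, which turned to 0.05 from FPKM, beside 0.11 over all loci. FPKM divided by their sum in the library, a scale chosen after seeing the data, gave -0.05 in the hippocampus with DR-AL, beside 0.02 over all loci. On that scale the median was 0.00017 in the hippocampus with DR and 0.01 in the hypothalamus with DR, beside 0.0071 and 0.0055.

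Some members were called in more than 1 tissue. In DR, 6 members (7.79%) were higher in 2 tissues (Mrps36, Mrps15 and Mrpl23 in liver and fat, and Mrps6, Mrpl18 and Mrpl51 in liver and colon). Of the 16192 loci tested in each of the 5 tissues, 13.3% were higher in 2 or more. No member was lower in more than 1 tissue, beside 7.03%. In DR-AL, 6 members were higher in 2 or more tissues, beside 13.6%, namely the Mrps6 locus in liver, colon and hippocampus, and Mrpl12, Mrps24, Mrpl54, Mrpl47 and Mrpl1 in 2 tissues each. Mrps28 was lower in hypothalamus and hippocampus, and 9.52% of all loci were lower in 2 or more tissues. These members depended on the scaling. With size factors, Mrps36 alone, which is in no subunit class, was higher in 2 tissues in DR, beside 9.24%. Mrpl9 was lower in liver and fat in DR with size factors, beside 9.93%. In DR-AL, Mrpl12, Mrps24, Mrps6 and Mrpl47 were higher in 2 or more tissues with size factors, beside 10.5%. With size factors, 5 members were lower in 2 tissues in DR-AL, beside 12.3%: Mrpl45, Mrpl2 and Mrps5 in liver and fat, Mrps9 in colon and fat, and Mrps28 in hippocampus and fat. DR and DR-AL were compared with the same AL library, so each comparison is given by its own values. In total 59 member loci (76.6%) were called at least once, beside 88.5% of the loci tested in each tissue, and 18 never. With size factors 66 (85.7%) were called at least once, beside 88.1%. Those never called included Mrps12, the decoding site protein, Mrps18b, Mrps30, the shared Mrps23 locus, Mrps25 and Mrpl14. Of these, Mrps12, Mrps30 and Mrpl14 were called lower in fat with DR-AL under size factors.

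For the diets, a test with replicates was possible only over the 5 tissues together. With tissue as a term over the 15 libraries, 0 of 77 members differed between DR and AL by the quasi-likelihood test of edgeR, beside 0.0114% of the 17476 loci tested. Likewise, 0 differed between DR-AL and AL, beside 0.00572%. DESeq2 also called 0 members in both, beside 0.134% and 0.168% of the loci with an adjusted p, so a count of 0 is near the background. At an unadjusted p under 0.05 there were 0 members with DR and 2 with DR-AL, where 3.76% and 4.93% of all loci stood. The 2 were Mrps9, with a log2 fold change of -0.26 ± 0.08 (SE, lower in 5 of 5 tissues, edgeR adjusted p = 0.852), and Mrps28, with -0.30 ± 0.10 (SE, lower in 5 of 5 tissues, edgeR adjusted p = 0.852). In the colon, Mrps28 hardly differed (12.35 CPM with AL and 12.34 with DR-AL). Neither of the 2 members passed the correction. The tissues come from the same mouse pools and are not independent animals.

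**Figure D3:**
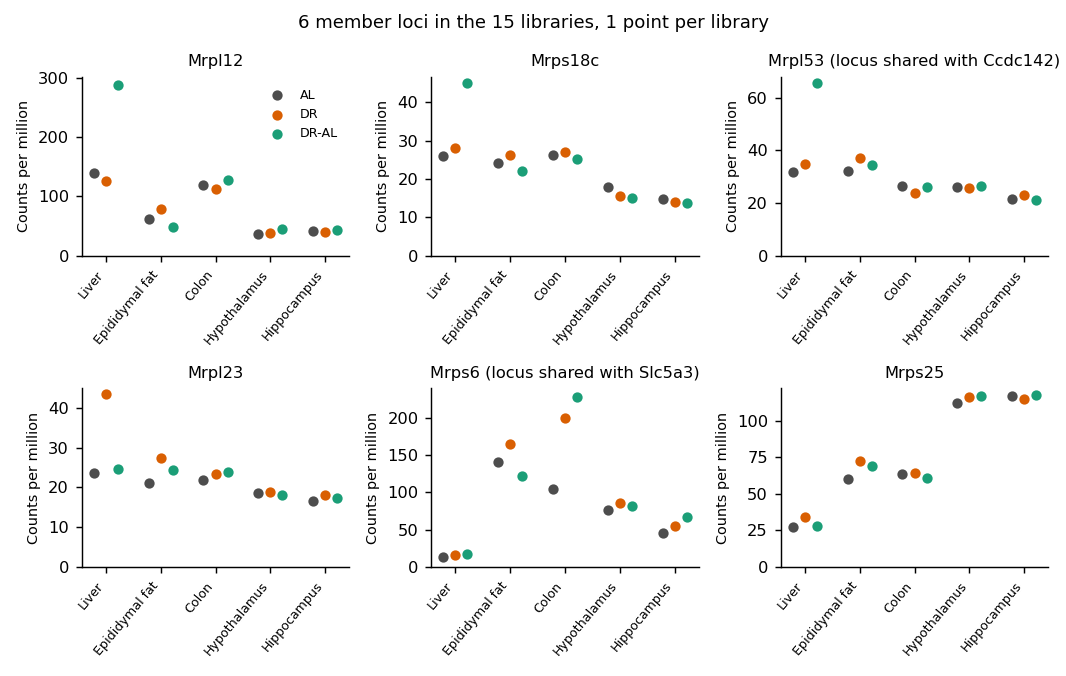
CPM (vertical axis, from 0) of 6 member loci in the 15 libraries, with 1 point per library and the diets in grey (AL), orange (DR) and green (DR-AL). Mrpl12, Mrps18c and Mrpl53 are highest in the DR-AL library of the liver, Mrpl23 in its DR library (43.6 CPM), and Mrps25 in the brain (at least 112 CPM).

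The members also differed between tissues. Summed levels over the 3 diets were 2124 ± 17.0 CPM for the hippocampus, 2313 ± 17.5 for the hypothalamus, 2645 ± 138 for the colon, 2941 ± 208 for the liver and 2964 ± 304 for fat (SD, n = 3 libraries, each of another diet). On this scale of total counts, liver and fat overlapped, and the ranges of colon, hypothalamus and hippocampus lay in falling order without overlap. The order of the tissues depended on the scaling, as given below. The counts of members called between tissues depended on the scaling. By the quasi-likelihood test of edgeR with TMM and the same minimum difference of 25%, each tissue was set against the mean of the other 4. In the liver 71 of 77 members were higher, beside 32.6% of the 17476 loci, and 3 were lower, beside 40.3%. With total counts these were 36, beside 16.3%, and 11, beside 63.5%. The TMM factors of the liver libraries were 0.552 to 0.582, against 1.31 to 1.35 in the hypothalamus. With TMM, the members' median log2 difference was 1.31 in the liver, 0.03 in the colon and -0.16 in fat. It was -0.60 in the hippocampus and -0.68 in the hypothalamus. With total counts, these medians were 0.28, -0.09, 0.29, -0.39 and -0.17 in the same order of tissues. In fat 6 were higher, beside 37.0%, and 22 lower, beside 24.5% (35 and 3 with total counts, beside 53.0% and 12.1%). Without the AL libraries 2 members were higher in fat, beside 34.1%, and without the DR-AL libraries 11, beside 31.4%. In the colon 25 were higher, beside 32.4%, and 10 lower, beside 37.2% (19 and 21 with total counts, beside 29.4% and 40.2%, and 3 lower without the AL libraries, beside 31.1%). In the hypothalamus 3 were higher, beside 38.0%, and 64 lower, beside 31.0% (9 and 29 with total counts, beside 51.4% and 19.3%). In the hippocampus 4 were higher, beside 36.4%, and 54 lower, beside 33.6% (5 and 45 with total counts, beside 41.3% and 28.5%). The part of the marker genes of other tissues in the fat libraries was not tested.

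Several members kept their direction between tissues under TMM and under total counts. The log2 differences given here are with TMM, and their sizes depend on the scaling. In the liver, the median over all loci was -0.33 with TMM and -1.36 with total counts. Mrps25, a small subunit protein specific to mitochondria, gave 117 CPM with AL, 115 with DR and 118 with DR-AL in the hippocampus and 112, 116 and 117 CPM with AL, DR and DR-AL in the hypothalamus. In the liver it gave 27.5 CPM with AL, 34.1 with DR and 28.3 with DR-AL, so that no brain library overlapped a liver library. Its log2 difference from the other tissues by edgeR was 0.71 ± 0.07 (SE, n = 3 libraries, adjusted p = 3.52e-06) in the hippocampus and -0.51 ± 0.08 (SE, n = 3 libraries, adjusted p = 9.96e-05) in the liver. The Mrps23 locus, which also holds Cuedc1 and 2210416O15Rik, gave 118 CPM with AL, 114 with DR and 107 with DR-AL in the hypothalamus and 27.9, 24.8 and 31.5 CPM with AL, DR and DR-AL in the liver, and was higher in the hypothalamus and in fat. Mrpl12 ran the other way, with at most 45.4 CPM in a brain library, and by edgeR differed by 2.63 ± 0.21 (SE, n = 3 libraries, adjusted p = 5.7e-07) in the liver and -1.64 ± 0.26 (SE, n = 3 libraries, adjusted p = 0.000181) in the hypothalamus. Mrpl14 gave 48.2 CPM with AL, 58.5 with DR and 41.8 with DR-AL in the liver and 8.67, 8.13 and 7.91 CPM with AL, DR and DR-AL in the hippocampus, and by edgeR differed by 2.62 ± 0.10 (SE, n = 3 libraries, adjusted p = 3.58e-09) and -1.84 ± 0.13 (SE, n = 3 libraries, adjusted p = 2.59e-07). Mrpl15 was higher in the liver, Mrpl24 and Mrps35 in the colon, and Mrps15 in fat, whereas Mrps24 was lower in the hypothalamus and Mrps35 and Mrpl52 in the hippocampus. The Mrps6 locus was higher in the colon and in fat and lower in the liver, where it held 12.7 CPM with AL, 16.0 with DR and 17.0 with DR-AL. Mrpl38, Mrpl41 and Mrpl11 were lower in the colon, Mrpl46 and Mrpl19 lower in fat, and Mrpl3 higher in the hippocampus.

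The mitochondrial ribosome has further proteins whose symbols do not begin with Mrp followed by l or s, and 7 were examined. In the liver 4 of 7 were higher in DR (3 with size factors) and 2 in DR-AL, and 0 were lower. Of all loci there, 18.0% were higher and 9.92% lower in DR (14.01% and 13.7% with size factors), and 15% and 15.8% in DR-AL. Chchd1, a small subunit protein, gave 23.6 CPM with AL, 26.9 with DR and 49.4 with DR-AL, the same order as Mrps18c. Mrp63 gave 22.8, 27.6 and 29.9 CPM and was higher in DR-AL. Aurkaip1, whose locus is shared with Ccnl2, gave 135, 265 and 119 CPM and was higher in DR, as were Ict1, Dap3 and Gadd45gip1. In fat 4 were higher and 1 lower in DR, beside 35.2% and 10.4% of all loci, and in DR-AL 1 (Dap3) was higher and 0 lower, beside 46.0% and 11.9%. With size factors, 0 were higher in fat and 1 lower in DR, beside 26.2% and 16.6%, and 0 were higher and 4 lower in DR-AL, beside 33.4% and 24.7%. Among those higher in fat with DR was Ptcd3, with 41.0, 53.5 and 39.4 CPM. In colon and brain 0 of 7 were called, where at most 9.04% of all loci were higher and at most 10.6% lower.

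Genes that assemble, supply or regulate the mitochondrial ribosome were called in both directions, as were loci at large. In the liver, where 18.0% of all loci were higher and 9.92% lower in DR, and 15% and 15.8% in DR-AL, 3 of 24 assembly genes were higher and 3 lower in DR, and 6 were higher and 2 lower in DR-AL, where Fastkd2 rose (14.1, 12.4 and 25.1 CPM) and Nsun4, which encodes a methyltransferase of mitochondrial ribosomal RNA, fell (18.0, 15.9 and 7.76 CPM). Of 17 translation factors, 1 was higher and 4 lower in DR, and 5 were higher and 3 lower in DR-AL, with the initiation factor Mtif3 at 30.6, 31.0 and 47.7 CPM. Of 17 mitochondrial aminoacyl-tRNA synthetases, 4 were higher and 2 lower in DR and 3 and 6 in DR-AL. Lars2 alone held 3864, 6425 and 5441 CPM, above the sum of all member loci in these libraries (2736, 2933 and 3153 CPM). What its counts come from was not tested. Of 12 genes of mitochondrial DNA transcription and replication, 0 were higher and 2 lower in DR and 2 and 4 in DR-AL, with the elongation factor Tefm at 10.1, 7.86 and 17.7 CPM. Of 12 regulators, Ppargc1a and Pprc1, which encode coactivators of mitochondrial biogenesis, were higher and Myc and Ppara lower in DR, whereas in DR-AL 1 (Myc) was higher and 2 lower. With size factors, higher and lower genes of these 5 lists in the liver numbered 2 and 3, 0 and 6, 3 and 3, 0 and 5, and 2 and 2 in DR, beside 14.01% and 13.7% of all loci. In fat, on the scale of totals, 35.2% of all loci were higher and 10.4% lower in DR, and 46.0% and 11.9% in DR-AL. There 4 assembly genes were higher and 0 lower in DR, and 5 were higher and 4 lower in DR-AL, with Nsun4 at 15.6, 30.2 and 78.5 CPM. Translation factors had 5 higher and 0 lower in DR and 3 higher and 4 lower in DR-AL, and synthetases 7 and 1 in DR and 3 and 2 in DR-AL. Genes of mitochondrial DNA had 2 higher and 1 lower in DR and 4 and 1 in DR-AL, and regulators 2 and 2 in DR and 5 and 4 in DR-AL, with Ppara at 90.1, 22.2 and 13.8 CPM. With size factors in fat, the counts in the same order of lists were 2 and 2, 4 and 1, 2 and 1, 1 and 1, and 2 and 5 in DR, beside 26.2% and 16.6% of all loci. In DR-AL they were 3 and 11, 0 and 10, 0 and 7, 1 and 3, and 1 and 5, beside 33.4% and 24.7%. In the colon, 5 of 17 translation factors were higher in DR, beside 9.04% of all loci, and 0 lower, and no other of these lists had more than 3 genes called in a direction. In the hypothalamus with DR-AL 4 of 12 regulators were higher, beside 6.06%, and 1 lower, beside 9.02%, with Esrrg at 10.2, 16.9 and 31.8 CPM, and in the hippocampus each list had at most 1 gene called in a direction, beside at most 3.99% of all loci. None of these lists was tested as a whole.

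The proteins of the cytosolic ribosome and of the respiratory chain gave a comparison with the members. In the liver with DR, 42 of 76 cytosolic ribosomal protein genes (55.3%) and 38 of 83 nuclear-encoded respiratory chain genes tested (45.8%) were higher, beside 18.0% of all loci, and 0 and 1 were lower, beside 9.92%. With DR-AL, 23 and 34 of them were higher, beside 15%, and 2 and 4 lower, beside 15.8%. With size factors, 30 and 26 were higher in DR, beside 14.01%. In fat with DR-AL, 61 cytosolic genes (80.3%) were higher, beside 46.0%, and 0 lower, but with size factors 1 was higher, beside 33.4%, and 0 lower. Of 84 respiratory chain genes in fat with DR-AL, 4 were higher and 50 (59.5%) lower, beside 11.9%, and with size factors 4 were higher and 74 lower, beside 24.7%. In fat with DR, 23 cytosolic genes and 38 respiratory chain genes were higher, beside 35.2%, and 0 of either lower. With size factors these were 1 and 16 higher, beside 26.2%, and 1 and 2 lower, beside 16.6%. In colon and brain 0 cytosolic genes were called, where between 1.36% and 9.04% of all loci were higher and between 2.16% and 10.6% lower. Of the respiratory chain, 2 were higher in the hypothalamus with DR-AL, beside 6.06% (4 with size factors, beside 6.99%), and 2 lower in the hippocampus with DR, beside 2.67%. In fat with DR-AL the medians were 0.42 for the cytosolic list, -0.41 for the respiratory chain and -0.07 for the mitochondrial ribosomal proteins, beside 0.39 over all loci. With size factors these medians were 0.08, -0.74, -0.41 and 0.06, and the differences between the lists were not tested.

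Promoter windows of 250 bases before to 50 bases after the transcription start were at hand for 67 of the 76 members, in 73 windows of RefSeq on GRCm38.p6. Not matched were Mrpl13, Mrpl15, Mrpl19, Mrpl38, Mrpl4, Mrpl54, Mrps28, Mrps34 and Mrps35. Motifs were searched on both strands for factors known to act on genes of mitochondrial proteins, and matches of a motif on opposite strands may overlap. The NRF1 motif GCATGCGC was in 10.96% of member windows, beside 2.71% of all 32851 windows of the same length. The ETS motif CCGGAAGT, to which the factor encoded by Gabpa binds, was in 16.4%, beside 3.89%. The YY1 motif AAGATGGC was in 16.4%, beside 2.75%. Any of the 3 was in 39.7% of member windows, beside 8.83% of all windows, 31.8% for cytosolic ribosomal protein genes and 31.9% for the respiratory chain. Among the members higher in the DR-AL liver, 8 of 25 windows (32.0%) held a motif.

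The windows of 4 members higher in the DR-AL liver are printed below on the coding strand, since 2 of them belong to the leading members and the others hold 2 kinds of motif. Motif matches are in capitals, and the window of Mrpl12 (chr11:120484387-120484686, plus strand) held none of the 3. The window of Mrps18c (chr5:100798509-100798808, plus strand) held an ETS motif. That of Mrpl33 (chr5:31613701-31614000, plus strand) held an NRF1 and an ETS motif, and that of Mrpl32 (chr13:14612988-14613287, minus strand) held 4 NRF1 matches and a YY1 motif. In GENCODE M21 on GRCm38 the genes themselves lie at chr11:120484613-120489065, chr5:100798627-100804471, chr5:31596935-31664384 and chr13:14608184-14613165. A match is a description of the sequence.
Mrpl12: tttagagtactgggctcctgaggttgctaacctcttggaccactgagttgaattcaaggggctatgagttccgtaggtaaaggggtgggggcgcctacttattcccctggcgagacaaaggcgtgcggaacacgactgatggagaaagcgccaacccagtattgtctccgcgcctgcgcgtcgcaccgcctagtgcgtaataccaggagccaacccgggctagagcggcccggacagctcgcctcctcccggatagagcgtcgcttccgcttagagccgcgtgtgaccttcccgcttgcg
Mrps18c: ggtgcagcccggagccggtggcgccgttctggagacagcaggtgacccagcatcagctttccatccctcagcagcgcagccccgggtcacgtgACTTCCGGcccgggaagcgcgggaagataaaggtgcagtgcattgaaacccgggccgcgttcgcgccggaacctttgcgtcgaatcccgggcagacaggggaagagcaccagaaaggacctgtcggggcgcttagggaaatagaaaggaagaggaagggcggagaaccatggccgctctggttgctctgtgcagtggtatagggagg
Mrpl33: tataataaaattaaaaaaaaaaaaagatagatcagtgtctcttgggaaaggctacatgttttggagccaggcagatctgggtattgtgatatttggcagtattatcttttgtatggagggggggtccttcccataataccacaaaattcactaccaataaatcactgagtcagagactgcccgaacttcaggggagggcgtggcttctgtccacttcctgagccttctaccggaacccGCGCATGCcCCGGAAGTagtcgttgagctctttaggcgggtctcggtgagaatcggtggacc
Mrpl32: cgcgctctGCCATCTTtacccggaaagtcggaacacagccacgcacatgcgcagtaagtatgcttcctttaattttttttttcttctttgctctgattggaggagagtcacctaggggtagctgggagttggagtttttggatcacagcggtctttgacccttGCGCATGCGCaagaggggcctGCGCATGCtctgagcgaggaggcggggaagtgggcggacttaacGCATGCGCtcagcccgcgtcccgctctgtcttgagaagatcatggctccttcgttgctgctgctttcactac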

How the data were processed

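The authors pooled RNA of 5 mice per tissue and diet, prepared stranded libraries after removal of ribosomal RNA, trimmed and aligned the paired reads and removed duplicates. Their methods name Strand software and mm10, and the submitters' processing notes name mm9 and DESeq2. On chromosome 7, 174 loci of the table end past the last gene of GENCODE M21, so coordinates are printed from GENCODE M21 and RefSeq on GRCm38 only. The deposited table holds a count and an FPKM value per locus and library, as the authors made them, in 30 columns, all used. Counts were taken on the 23589 of 33603 loci with a gene name, and unnamed loci took 0.258% to 1.39% of a library.

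Log2 fold changes used a pseudocount of 0.5, and 95% intervals are exact Clopper-Pearson intervals. The Z test took in each locus that had a count in any library of the tissue. The minimum difference of 25% between 2 levels follows the study's methods. Models over 15 libraries used edgeR 4.0.16 (TMM, filterByExpr), DESeq2 1.42.0 and R 4.3.3, with Benjamini-Hochberg adjustment over all loci. Python 3.11.15, numpy 2.4.6, pandas 2.3.3, scipy 1.17.1, statsmodels 0.14.6 and matplotlib 3.10.9 were used for the rest. Scripts were tested on simulated data.

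Members named in the text were, per comparison, up to 3 called in each direction with the largest fold change and a mean of at least 100 counts, and per tissue the 3 with the largest differences. Also named were the 5 highest and 5 lowest by median FPKM over the libraries, members called in most tissues or never (here some of them), Mrpl12, Mrps5, Mrps12, Mrps18a, Mrps18b, Mrps18c, Mrps30 and Mrps36, and up to 3 genes of other lists. Others, such as the 9 that passed a wider error, were chosen after their values were seen. Members and lists were chosen with earlier results of these data known.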

Additional observations from a re-analysis of the deposited data

Results flagged for a closer look

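Some members were called higher than AL in 1 tissue and lower in another under the same comparison, 2 (2.60%) with DR and 5 (6.49%) with DR-AL, beside 11.6% and 19.6% of the loci tested in each tissue. With DESeq size factors they numbered 1 (1.30%) and 21 (27.3%), beside 11.5% and 19.8%, so the counts depend on the scale. None of these differences between tissues was tested, since each tissue and diet has 1 library. With DR, Mrps10 had a log2 fold change of 0.34 in the colon and -0.33 in the hippocampus. Mrpl3 stood at -0.48 in the liver and 0.39 in fat, where it was not called with size factors.

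With DR-AL, Mrpl12 stood at 1.04 in the liver, 0.32 in the hypothalamus and -0.37 in fat. Mrps24 stood at 0.58 in the liver, 0.37 in the hippocampus and -0.57 in fat. Mrpl27 stood at 0.39 in the liver and -0.39 in fat, and Mrpl34 at 0.34 in the liver and -0.38 in fat. Mrpl33 stood at 0.40 in the liver and -0.35 in the hypothalamus. The fat libraries differ in marker genes of other tissues, and the part of this was not tested. The 5 members named for DR-AL were called in both directions with size factors too.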

How the results depend on the processing

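Of 98 member calls within a tissue, 66 (67.3%, beside 87.1% of the calls of all loci) were also made with DESeq size factors, 90 (91.8%, beside 96.0%) without the 10 most abundant loci in the totals and 20 (20.4%, beside 46.2%) when pools were assumed to vary with a coefficient of 0.1. A filter at a mean of 10 counts changed no count of called members by over 1.5 times. With size factors, higher and lower members numbered 3 and 5 in the liver with DR, 6 and 4 in fat with DR, 1 and 48 in fat with DR-AL, and 1 was lower in the hypothalamus with DR-AL. The shift of the fat scale is given above, and the cause was not tested. The shares of all loci under size factors are given above with these counts. With a coefficient of variation of 0.1, a wider error by construction, 1 was higher and 0 lower in the liver with DR (beside 5.88% and 2.96% of all loci), 9 and 0 in the liver with DR-AL (5.64% and 4.96%), 6 higher in fat with DR (22.25%), 1 and 1 in fat with DR-AL (35.7% and 8.04%), 1 higher in the colon with DR (1.68%), 1 and 0 in the colon with DR-AL (0.619% and 1.24%), 0 and 0 in the hypothalamus with DR-AL (1.34% and 2.12%), 0 lower in the hippocampus with DR (0.0372%) and 0 and 0 with DR-AL (0.223% and 0.0691%). Without the 10 most abundant loci 15 were lower in fat with DR-AL, beside 14.2%; the cause was not tested. On loci with 1 gene name, which leaves out Mrps6, Mrps23 and Mrpl53, 1 was higher in the colon and 1 in the hippocampus with DR-AL, beside 5.85% and 4.00% of all loci with 1 name.

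From FPKM the median of the members in fat with DR was -0.47 with a pseudocount of 0.1 and -0.46 with 1, against 0.22 from counts; the FPKM of that library carry the factor of 0.608 given above. Over all loci tested it was -0.38 and -0.24. From FPKM with these pseudocounts, the median of the members was -1.66 and -1.54 in fat with DR-AL (-1.01 and -0.60 over all loci), 0.0053 with either in the liver with DR (0 over all loci), 0.10 with either in the hippocampus with DR (0.10 and 0.06) and 0.05 and 0.04 in the hippocampus with DR-AL (0.11 and 0.06). The other 5 medians moved by less than 0.1. With FPKM divided by their sum in the library, chosen after seeing the data, the median was 0.25 in fat with DR, and it moved by more than 0.1 in the liver, to -0.01 with DR and -0.03 with DR-AL.

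Between tissues, total counts in place of TMM gave 36 higher and 11 lower in the liver, 35 and 3 in fat, 21 lower in the colon, and 9 and 29 in the hypothalamus, with the shares of all loci given above; the cause was not tested. Leaving out the libraries of a diet in turn, between 2 (without AL, beside 34.1% of all loci) and 11 members (without DR-AL, beside 31.4%) were higher in fat, and between 3 (without AL, beside 31.1%) and 12 (without DR-AL, beside 33.9%) lower in the colon. Leaving the fat libraries out of the fit, chosen after seeing the data, changed no count of the other tissues by over 1.5 times. RLE size factors, no filter and DESeq2 did not either. Over the 5 tissues, 0 members passed for either diet with RLE size factors, no filter, DESeq2, no tissue term or any tissue left out.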
